A study of Mus musculus with 28 samples.

Results

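The core circadian clock genes Arntl, Clock, Per1, Per2, Per3, Cry1, Cry2, Nr1d1, Nr1d2 and Dbp were examined in the frontal cortex of aged mice that carry a mutant TDP-43. These 10 genes were taken by symbol as known parts of the clock, by a rule that used no measured value, although earlier results of these data were known, out of 25900 gene identifiers in the count table. PolyA RNA was sequenced from frontal cortex at 20 months of age on the C57BL/6 strain background. The mice were wild type (+/+, WT, 8 libraries), heterozygous (HET, 10 libraries) or homozygous (HOM, 10 libraries) for a knock-in of the Q331K substitution, a change known from amyotrophic lateral sclerosis, in TDP-43, an RNA-binding protein encoded by Tardbp. The allele sits in the mouse gene itself, so no added promoter drives it, and all 3 groups shared tissue, age, strain and protocol. The labels do not give the time of day of collection, sex or batch. Nor do they say that every numbered library came from a different animal. The p-values therefore rest on variation among libraries, part of which may be technical.

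The mammalian clock is a feedback loop of transcription that runs in most cells, cortical neurons and glia included. The CLOCK and BMAL1 proteins, BMAL1 being the product of Arntl, bind E-box sequences as a pair and activate the Per, Cry, Nr1d and Dbp genes. PER and CRY proteins return to block that pair, and the Nr1d products, the nuclear receptors REV-ERB alpha and beta, repress Arntl, so that Arntl RNA peaks when Dbp and Nr1d1 RNA are low. DBP carries the rhythm to further genes through D-box sequences. Per1 and Per2 also answer neuronal activity, cyclic AMP signalling and glucocorticoids directly.

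Library totals ran from 30.5 to 74.9 M counts, with a median of 53.5 M, and the lowest count of any of the 10 genes in any library was 590, for Cry1. Of the 12 markers of cortical neurons, 1 fell in HOM against WT, while 3 of 8 astrocyte, 4 of 5 oligodendrocyte precursor, 6 of 9 microglia, 5 of 10 endothelial and mural and 2 of 10 meningeal markers rose, where 7.61% of all genes tested passed in either direction. Of the 7 oligodendrocyte, 10 striatal and 7 choroid plexus markers tested, 0 passed. The summed level of the astrocyte markers ran from 1490 to 1790 CPM (counts scaled to library size) in WT, from 1590 to 1880 in HET and from 1690 to 1980 in HOM, and that of the microglia markers from 422 to 497, from 432 to 504 and from 471 to 595. Correlations of the marker lists with the clock genes within genotype are given further below. The part of these markers in the differences of the clock genes between genotypes was not tested. In bulk tissue, fewer cells of a type and less RNA per cell cannot be told apart.

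None of the 10 clock genes passed the test over all genes between genotypes. In HOM against WT, 0 of the 10 passed an adjusted p of 0.05 (edgeR's quasi-likelihood test, Benjamini-Hochberg over 16110 genes), where 7.61% of all genes did. In HET against WT the clock genes passed in 0 of 10 cases and all genes in 0%. For HOM against HET the counts were again 0 of 10, beside 0.0372% of all genes. A slope on the number of mutant alleles passed for 0 of 10, beside 7.78% of all genes, and a departure of HET from the midpoint of WT and HOM for 0 of 10, beside 0%. Without adjustment, p lay under 0.05 for 2 of the 10 in HOM against WT and in the slope, for Nr1d1 and Nr1d2 each time, and for 0 in the other comparisons. The same unadjusted limit was met by 24.6% of all genes in HOM against WT, 9.6% in HET against WT and 8.54% in HOM against HET. For the slope it was met by 24.7% of all genes, and for the departure by 2.83%. DESeq2 and limma voom also called 0 of the 10 in each of the 5 comparisons.

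The intervals around these differences were narrow. For all 10 genes the 95% interval of the fold change lay within 1.5-fold in either direction in HOM against WT, HET against WT and HOM against HET. The median log2 fold change of the 10 in HOM against WT was -0.05, beside 0.01 over all genes, and the median size without regard to sign was 0.07, beside 0.06. A p that misses the threshold does not show that a gene was unchanged. On simulated counts for HOM against WT, drawn gene by gene, 60% of the 50 genes given a 1.2-fold change were called. The share was 62% of the 50 at 1.3-fold and 88% of the 50 at 1.6-fold. Of the 168 genes called there, 14 had been given no change. The changed genes were picked at random from all genes tested, whose median biological coefficient of variation (spread between libraries beyond counting noise) was 6.84%. That of Per1, Per2, Dbp and Nr1d1 was 15.8%, 16.3%, 16.0% and 16.5%, so these shares do not carry over to them.

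**Figure D1:**
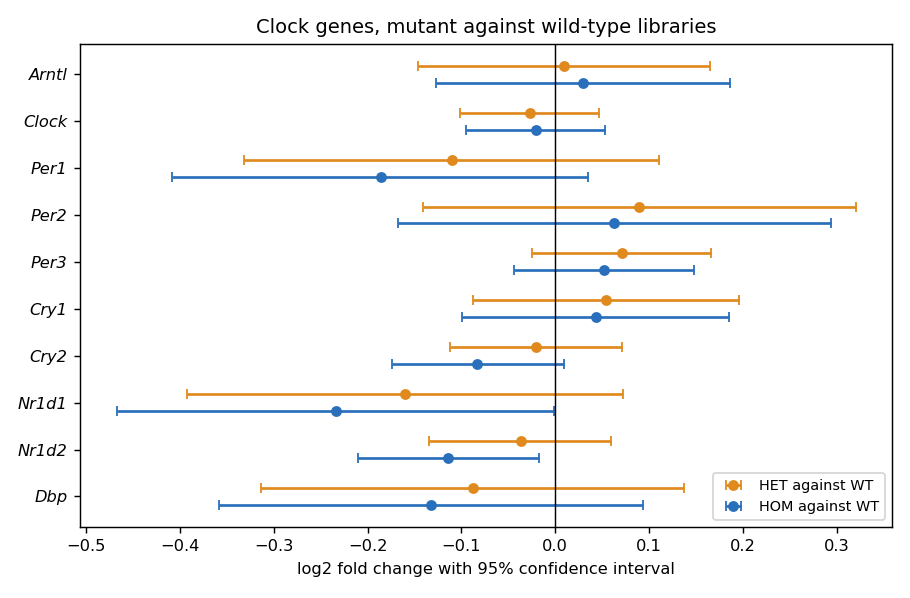
Log2 fold change of each clock gene in HOM against WT and HET against WT, with its 95% interval from the edgeR fit. Most intervals cross 0, and those of Nr1d1 and Nr1d2 in HOM against WT end just below it, at -0.001 and -0.02, although neither gene passed after adjustment.

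Arntl (ENSMUSG00000055116, chromosome 7, 113207465 to 113314122, plus strand, GRCm38) encodes BMAL1, the partner without which the loop stops. Its level was 29.2 CPM in the lowest, 32.8 in the median and 35.4 in the highest WT library, 25.1, 31.7 and 39.5 in HET, and 27.9, 31.2 and 41.1 in HOM. The groups overlapped, with 4 HOM libraries above the highest WT library and 2 below the lowest. HOM differed from WT by 0.03 on the log2 scale (SE 0.08, edgeR adjusted p = 0.853). Clock (ENSMUSG00000029238, chromosome 5, 76212177 to 76304548, minus strand), its partner in the activating pair, was the steadiest of the 10 genes. It stood at 92.3, 97.1 and 101 CPM in the lowest, median and highest WT library, at 85.9, 94.3 and 106 in HET and at 85.3, 96.3 and 104 in HOM, and HOM differed from WT by -0.02 on the log2 scale (95% interval -0.10 to 0.05).

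Among the Per and Cry genes, whose products block the activating pair, Per1 (ENSMUSG00000020893, chromosome 11, 69095217 to 69109960, plus strand) had the largest difference in HOM against WT. Per1 ran from 117 through a median of 146 to 183 CPM in WT, from 107 through 133 to 167 in HET, and from 101 through 120 to 186 in HOM. In HOM, 4 libraries had less Per1 than any WT library and 1, HOM 7, had more than any, so the groups overlapped at both ends. HOM differed from WT by -0.19 in log2 Per1 (SE 0.11, edgeR adjusted p = 0.294). Per2 (ENSMUSG00000055866, chromosome 1, 91415984 to 91459330, minus strand) had values on the other side of 0. It ran from 61.9 through 76.9 to 102 CPM in WT, from 52.1 through 87.7 to 106 in HET, and from 64.2 through 83.2 to 95.9 in HOM. Every HOM library lay within the WT range, and the log2 difference was 0.06 (SE 0.11, edgeR adjusted p = 0.774).

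Per3 (ENSMUSG00000028957, chromosome 4, 151003652 to 151044665, minus strand) lies 2.38 Mb from the edited gene Tardbp on the same chromosome. Its level ran from 75.6 through 83.3 to 89.7 CPM in WT, from 75.8 through 83.9 to 108 in HET, and from 79.1 through 85.1 to 92.6 in HOM, and HOM differed from WT by 0.05 on the log2 scale (SE 0.05, edgeR adjusted p = 0.522). The cryptochromes, which hold the CLOCK and BMAL1 pair in its repressed state, overlapped between genotypes too. Cry1 (ENSMUSG00000020038, chromosome 10, 85131702 to 85185054, minus strand) ran from 17.7 through 19.8 to 22.8 CPM in WT, from 15.8 through 21.4 to 25.0 in HET and from 18.7 through 20.7 to 24.0 in HOM (log2 difference of HOM and WT 0.04, SE 0.07). Cry2 (ENSMUSG00000068742, chromosome 2, 92403646 to 92434043, minus strand) ran from 165 through 184 to 206 CPM in WT, from 159 through 185 to 197 in HET and from 154 through 175 to 194 in HOM. For Cry2, 7 of 10 HOM libraries lay below the WT mean and 2 below every WT library (log2 difference -0.08, SE 0.05, edgeR adjusted p = 0.255).

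The REV-ERB genes had the lowest p-values of the 10. Nr1d1 (ENSMUSG00000020889, chromosome 11, 98767932 to 98775333, minus strand) ran from 86.8 through 120 to 136 CPM in WT, from 78.8 through 101 to 134 in HET, and from 77.9 through 91.9 to 132 in HOM. Most mutant libraries lay in the lower part of the WT range, with 8 of 10 HOM and 8 of 10 HET libraries below the WT mean and 2 and 3 of them under every WT value. The fold of HOM over WT was 0.85 (95% interval 0.72 to 1.0, edgeR p = 0.0489, adjusted p = 0.201). Nr1d2 (ENSMUSG00000021775, chromosome 14, 18204054 to 18239127, minus strand) ran from 168 through 185 to 193 CPM in WT, from 152 through 177 to 208 in HET, and from 149 through 167 to 187 in HOM. Of 10 HOM libraries, 8 lay below the WT mean and 5 below every WT library. Its fold was 0.92 (95% interval 0.86 to 0.99, edgeR p = 0.0228, adjusted p = 0.133), and HET stood at 0.97 of WT (95% interval 0.91 to 1.04).

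Dbp (ENSMUSG00000059824, chromosome 7, 45705088 to 45710155, plus strand), the output factor, ran from 75.7 through 79.9 to 103 CPM in WT, from 48.9 through 79.5 to 92.8 in HET, and from 58.8 through 75.4 to 100 in HOM. The medians lay close together while the HET and HOM ranges reached far lower, with 5 HOM and 3 HET libraries under every WT value. HOM differed from WT by -0.13 in log2 Dbp (SE 0.11, edgeR adjusted p = 0.48). The difference was -0.09 without WT 3, the library at 103 CPM, and that of HET and WT went from -0.09 to -0.04. Exons of Dbp share 539 bases, 18% of its exon bases, with the neighbour Sphk2 on the other strand, and those of Nr1d1 share 263 bases, or 8.5%, with Thra. Since the strand setting of the counting is not given in the sources used here, reads there cannot be told apart. Sphk2 had 19.3 ± 0.835 CPM in WT (SD, n = 8) and 20.8 ± 1.78 in HOM (n = 10), less than Dbp, and its r with Dbp across libraries was -0.68. Thra had 678 ± 34.3 CPM in WT and 719 ± 40.9 in HOM, several times the level of Nr1d1, and its r with Nr1d1 was -0.04. The part of Thra reads in the Nr1d1 counts was not tested.

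**Figure D2:**
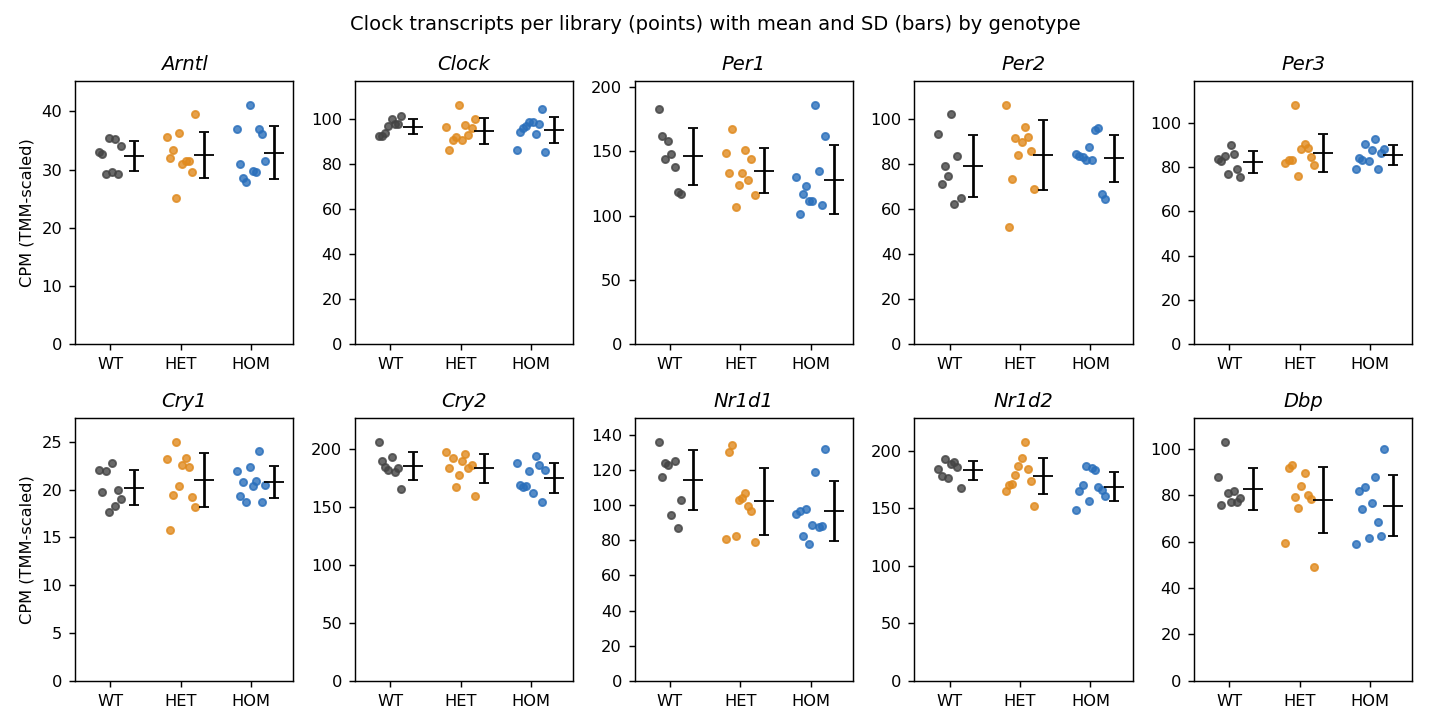
CPM of each clock gene in the 8 WT, 10 HET and 10 HOM libraries, 1 point per library, with the group mean and SD. The genotypes overlap for every gene, Nr1d1 and Nr1d2 have 8 of 10 HOM libraries below the WT mean, and 1 HET library of Per3 stands at 108 CPM.

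Compared per kilobase of exon, the genes ranged from the REV-ERB genes at the top to Arntl at the bottom. Over the 28 libraries the level was highest for Nr1d1, at 33.5 ± 6.0 CPM per kilobase (SD), and Nr1d2, at 32.6 ± 2.53, and Nr1d1 was the higher in only 12 of 28 libraries. Cry2 followed at 28.6 ± 2.01, Dbp at 26.2 ± 4.15 and Per1 at 24.2 ± 4.05, with neighbours in this order overlapping in range. Per2 stood at 14.0 ± 2.22, Per3 at 8.83 ± 0.66, Clock at 6.94 ± 0.364, Cry1 at 6.19 ± 0.64 and Arntl at 4.33 ± 0.495. Per3 and Clock were the only neighbours whose ranges did not overlap. Taking the longest transcript as the length in place of the union of exons changed the order. At the top stood Cry2 at 46.6, Dbp at 45.1, Nr1d1 at 41.7 and Nr1d2 at 39.2 CPM per kilobase in WT. By that length Per2 at 13.5 and Per3 at 13.7 lay side by side, and Arntl at 8.08 lay above Cry1 at 6.67.

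Libraries of 1 genotype differed from each other in some clock genes far more than in others. The SD of log2 CPM within genotype was 0.25 for Per2, 0.24 for Dbp, 0.24 for Nr1d1 and 0.23 for Per1. These values lie between the 79.3 and 81.3 percentiles of all 16110 genes tested. Arntl (0.17) and Cry1 (0.16) came next. Nr1d2, Per3 and Cry2 (0.11, 0.10 and 0.10) lay near the median gene at 0.11, and Clock at 0.08 lay at the 29.8 percentile. The gap between lowest and highest library was 2.11-fold for Dbp and 2.04-fold for Per2 over all 28 libraries, and 1.24-fold for Clock.

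**Figure D3:**
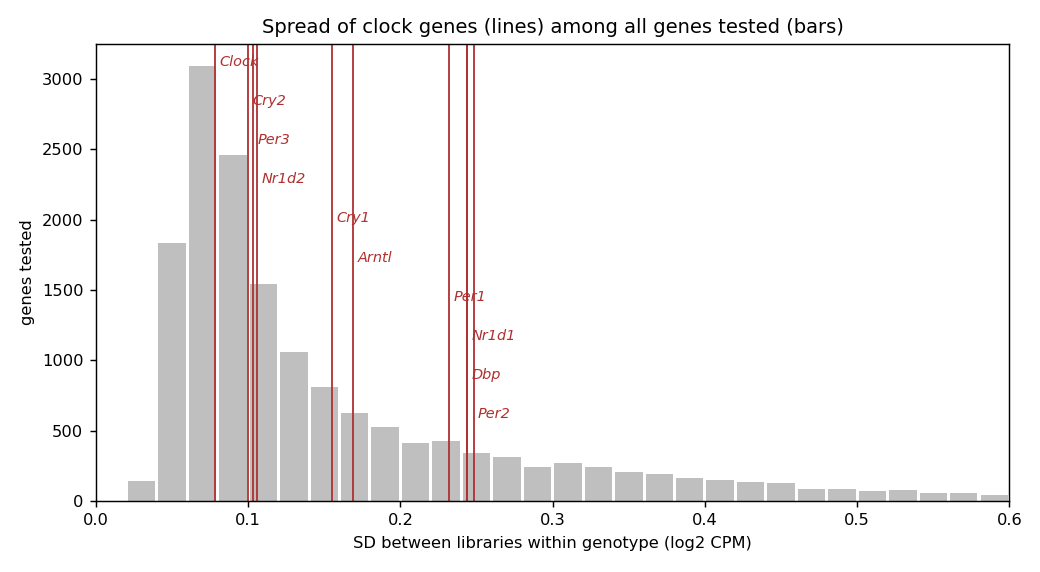
Histogram of the SD of log2 CPM within genotype over all genes tested, with a line for each clock gene. Per2, Dbp, Nr1d1 and Per1 sit at 0.23 to 0.25, to the right of the median gene at 0.11, and Clock sits to the left at 0.08.

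Some pairs of the genes shared this spread, and most pairs did not pass. With each genotype's mean subtracted from log2 CPM, 9 of the 45 pairs of clock genes were correlated across the 28 libraries at an adjusted p of 0.05 (Pearson's r, 100000 permutations of libraries within genotype, two-sided, Benjamini-Hochberg over 45 pairs). Of the 9, 5 were positive and 4 negative, all kept their sign in each of the 3 genotypes, and 8 also passed by Spearman's rho. By rho 13 pairs passed, the 8 and 5 others. All genes of a library share its scaling, so the same measure was taken over all genes. An absolute r of at least 0.57, the lowest among the 9, was found in 20% of the clock pairs and in 2.44% of all 129757995 pairs of tested genes. That limit was taken from the 9 pairs, so the 20% only restates their count. The median absolute r was 0.29 for the clock pairs and 0.18 for all pairs. No clock gene was correlated with the library total at the adjusted threshold.

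Repressors varied in pairs. Per2 rose and fell with Cry1 (r = 0.81 and rho = 0.82, adjusted p = 0.000225 for both, from a permutation p of 1e-05, the smallest that these resamples can give). The r was 0.78 without the 2 libraries farthest from the median of Per2, and 0.81, 0.91 and 0.58 within WT, HET and HOM. HET 2 was lowest of all 28 libraries in both genes, at 52.1 CPM of Per2 and 15.8 CPM of Cry1, and without it r was 0.74. Per1 varied with Cry2 (r = 0.78, rho = 0.82, adjusted p = 0.000225 by permutation for both), with r = 0.77 without the farthest 2 libraries and 0.81, 0.86 and 0.73 within WT, HET and HOM. WT 1 and HOM 7 were the highest libraries of their groups in both Per1 (183 and 186 CPM) and Cry2 (206 and 194 CPM), and WT 8 was the lowest of WT in both (117 and 165 CPM). Per1 and Per2 themselves had r = 0.17 (adjusted p = 0.55 by permutation).

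Dbp and Nr1d1, targets of CLOCK and BMAL1, also moved together (r = 0.74 and rho = 0.74, adjusted p = 0.0003 by permutation for both). Their r was 0.68 without the 2 libraries farthest from the median of Dbp, and 0.56, 0.80 and 0.78 within WT, HET and HOM. HOM 10 was the highest HOM library in both, at 100 CPM of Dbp and 132 of Nr1d1, and HET 10 the lowest HET library in both, at 48.9 and 78.8 CPM. Per1 varied with Nr1d1 as well (r = 0.67, adjusted p = 0.00171, rho = 0.60, adjusted p = 0.00825 by permutation), with r = 0.57 without the farthest 2 libraries and 0.70, 0.55 and 0.78 within WT, HET and HOM. Dbp and Nr1d2 had r = 0.59 (adjusted p = 0.0187 by permutation), also 0.59 without the farthest 2, and 0.46, 0.67 and 0.51 within the genotypes. Their rho of 0.45 did not pass (adjusted p = 0.0719 by permutation), and the adjusted p of r rose above the threshold without HET 10 or without HOM 1, to at most 0.112. The REV-ERB genes were not detectably correlated with each other (r = 0.20, adjusted p = 0.523 by permutation).

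Arntl was negatively correlated with Per3, Dbp and Nr1d2. For Per3 the value was r = -0.69 (adjusted p = 0.00124, rho = -0.66, adjusted p = 0.0018 by permutation), -0.58 without the farthest 2 libraries, and -0.40, -0.86 and -0.67 within WT, HET and HOM. HET 4 had the lowest Arntl of all 28 libraries, 25.1 CPM, and the highest Per3, 108 CPM, and without it r was -0.59. Arntl and Dbp had r = -0.61 (adjusted p = 0.016, rho = -0.59, adjusted p = 0.0119 by permutation), -0.63 without the farthest 2 libraries, and -0.22, -0.59 and -0.74 within the genotypes. HOM 5 had the highest Arntl (41.1 CPM) and a Dbp of 61.6 CPM, and HET 10, with the highest Arntl of HET (39.5 CPM), had the lowest Dbp of all. For Arntl and Nr1d2 r was -0.58 (adjusted p = 0.0186, rho = -0.59, adjusted p = 0.0114 by permutation), -0.61 without the farthest 2, and -0.55, -0.45 and -0.74 within the genotypes. Without HET 10 alone, the adjusted p of Arntl with Dbp became 0.0818 and that of Arntl with Nr1d2 0.082. Arntl and Nr1d1 had r = -0.07 (adjusted p = 0.843 by permutation).

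Clock was correlated with Nr1d1 (r = -0.57, adjusted p = 0.017, rho = -0.60, adjusted p = 0.00887 by permutation). The value was -0.41 without the 2 libraries farthest from the median of Clock, -0.63, -0.48 and -0.67 within WT, HET and HOM, and the adjusted p rose to 0.067 without HOM 10, the library with the lowest Clock (85.3 CPM). Clock and Arntl, whose products bind each other, had r = 0.27 (adjusted p = 0.395 by permutation). Some pairs missed the threshold by r and passed it by rho. Per3 and Nr1d2 had r = 0.48 (adjusted p = 0.0763 by permutation), and rho = 0.64 (adjusted p = 0.00486 by permutation), and without HET 4 the r became 0.62 (adjusted p = 0.00598). Cry1 and Cry2 had r = 0.41 (adjusted p = 0.0994 by permutation) and rho = 0.53 (adjusted p = 0.0182), and without the same library the r became 0.57 (adjusted p = 0.00976). Per2 and Cry2 had r = 0.48 (adjusted p = 0.056 by permutation) and rho = 0.56 (adjusted p = 0.0121). For Clock and Dbp r was -0.48 (adjusted p = 0.0771 by permutation) and rho -0.55 (adjusted p = 0.0182), and for Per3 and Dbp r was 0.38 (adjusted p = 0.202 by permutation) and rho 0.52 (adjusted p = 0.02).

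**Figure D4:**
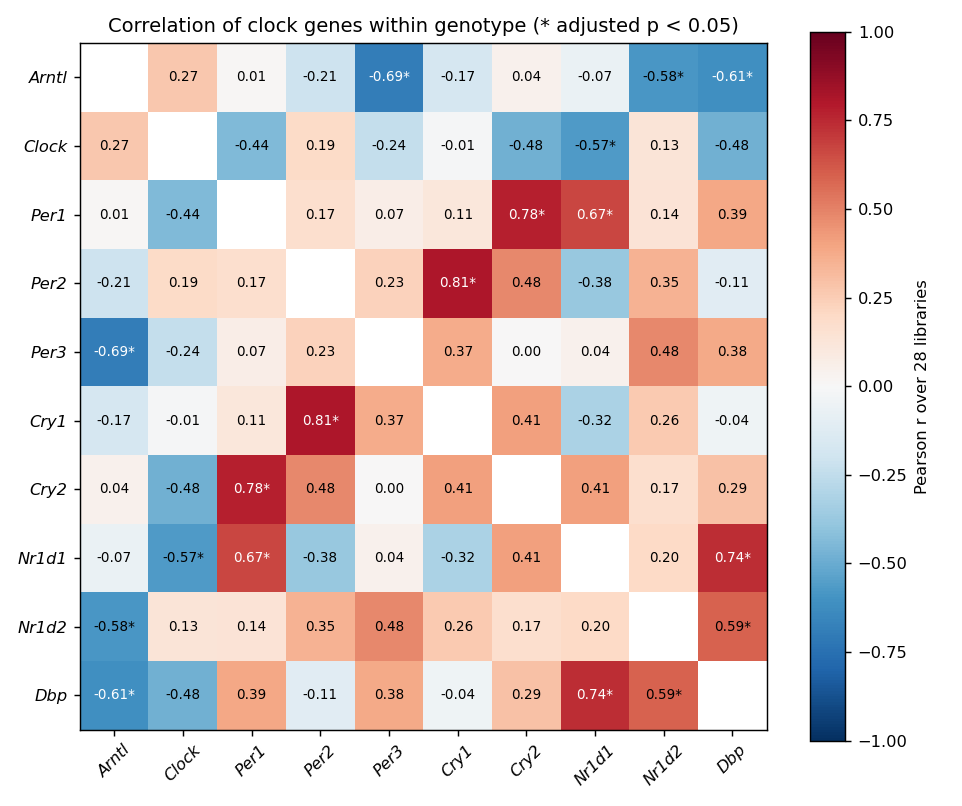
Pearson's r of genotype-centred log2 CPM over 28 libraries for the 45 pairs of clock genes, with those past an adjusted p of 0.05 marked. The 9 marked pairs run from -0.69 for Per3 with Arntl to 0.81 for Per2 with Cry1.

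**Figure D5:**
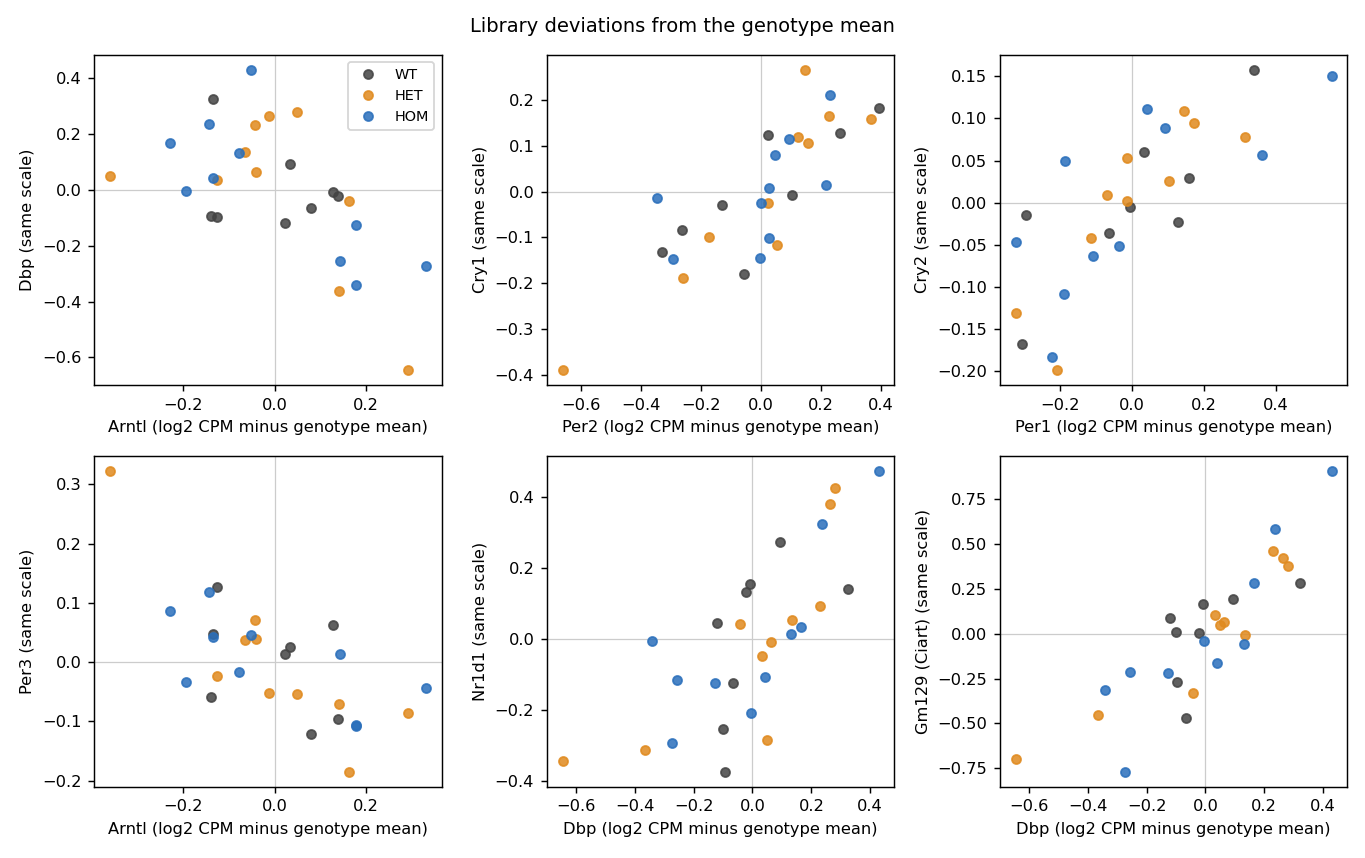
Deviation of each library from its genotype mean (log2 CPM), with the genes of a pair plotted against each other and points coloured by genotype. The pairs are Arntl with Dbp, Per2 with Cry1, Per1 with Cry2, Arntl with Per3, Dbp with Nr1d1 and Dbp with Gm129. Points carry no library names. By its values, HET 10 is low in Dbp, Nr1d1 and Cry2 and high in Arntl, and HET 4 is high in Per3 and Cry1 and low in Arntl.

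The sequence just upstream of the clock genes was searched for the known clock motifs, in the 250 bases before each start site. The RefSeq promoter table (GRCm38.p6) held 13 windows of 9 of the 10 genes, all but Per2. Every clock gene belongs to a correlated pair, so the pairs did not select which windows were searched. Both strands were searched for the E-box CACGTG, the variant E-prime box CACGTT, the D-box TTATGTAA or TTACGTAA, the RORE core TAGGTCA or TGGGTCA and the CRE TGACGTCA, and no match overlapped another. E-boxes were found for Per1, in 1 of its 2 windows, and for Cry1, E-prime boxes for Cry1, Cry2 and Nr1d1, and 2 D-boxes for Per3. The windows of Arntl, Clock, Dbp and Nr1d2 held none of these letters, and none of the 13 windows held an RORE core or a CRE. Of all 32851 windows of that length, 6.02% held an E-box, 3.85% an E-prime box, 0.93% a D-box, 5.38% an RORE core and 1.55% a CRE. The 5 windows with a match are shown for that match alone, 5′ to 3′ on the gene's strand and without annotated exon bases, and capitals mark the match. The window of Per1 is chr11:69098699-69098947 on the plus strand, and that of Cry1 is chr10:85185065-85185304 on the minus strand. The window of Cry2 is chr2:92434070-92434319 on the minus strand, that of Nr1d1 is chr11:98775378-98775627 on the minus strand, and that of Per3 is chr4:151044666-151044915 on the minus strand.
Per1: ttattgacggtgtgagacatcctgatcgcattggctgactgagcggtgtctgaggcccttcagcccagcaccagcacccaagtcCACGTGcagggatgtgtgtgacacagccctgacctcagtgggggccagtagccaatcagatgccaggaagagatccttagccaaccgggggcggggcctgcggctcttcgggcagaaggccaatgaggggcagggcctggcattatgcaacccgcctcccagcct
Cry1: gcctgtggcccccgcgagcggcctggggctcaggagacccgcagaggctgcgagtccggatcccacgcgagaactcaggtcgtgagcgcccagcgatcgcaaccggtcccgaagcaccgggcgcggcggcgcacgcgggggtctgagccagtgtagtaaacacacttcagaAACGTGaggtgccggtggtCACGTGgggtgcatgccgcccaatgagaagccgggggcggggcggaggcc
Cry2: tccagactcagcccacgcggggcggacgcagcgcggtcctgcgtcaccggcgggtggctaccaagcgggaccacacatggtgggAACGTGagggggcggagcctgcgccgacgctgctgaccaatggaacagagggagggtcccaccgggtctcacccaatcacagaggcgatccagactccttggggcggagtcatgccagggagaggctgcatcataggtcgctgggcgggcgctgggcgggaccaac
Nr1d1: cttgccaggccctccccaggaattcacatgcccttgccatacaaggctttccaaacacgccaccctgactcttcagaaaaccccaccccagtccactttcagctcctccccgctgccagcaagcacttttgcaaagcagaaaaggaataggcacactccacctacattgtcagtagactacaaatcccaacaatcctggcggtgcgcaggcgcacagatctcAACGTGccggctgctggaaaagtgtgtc
Per3: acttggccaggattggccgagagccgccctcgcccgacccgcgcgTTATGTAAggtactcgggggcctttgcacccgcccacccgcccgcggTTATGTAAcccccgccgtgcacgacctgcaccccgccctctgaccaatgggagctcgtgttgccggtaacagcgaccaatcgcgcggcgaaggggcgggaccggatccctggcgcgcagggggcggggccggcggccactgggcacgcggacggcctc
The E-box of Per1 lies 166 bases before the start site and that of Cry1 60 bases before it. The E-prime boxes, read here as AACGTG on the printed strand, lie 79 bases before the start in Cry1, 166 in Cry2 and 28 in Nr1d1, and the D-boxes of Per3 lie 205 and 158 bases before it. Of the correlated pairs, both genes of Per1 with Cry2 and of Per1 with Nr1d1 thus had an E-box or E-prime box in a window. The other pairs of genes with such a box did not pass by r. These were Per1 with Cry1 (r = 0.11), Cry1 with Cry2 (0.41), Cry1 with Nr1d1 (-0.32) and Cry2 with Nr1d1 (0.41). In the remaining correlated pairs, a gene had no such box or, for Per2, no window. Whether these boxes go with correlation was not tested. Such a match is a description, not a shown binding site.

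The other clock transcription factors did not pass either. In HOM against WT 0 of 13 passed the adjusted threshold, where 7.61% of all genes did (median log2 fold change of the 13 -0.06). Npas2, a relative of Clock that also pairs with BMAL1, stood at 36.9 ± 3.19 CPM in WT (SD, n = 8) and 41.0 ± 2.82 in HOM (n = 10), a log2 difference of 0.15 (edgeR adjusted p = 0.0725). Bhlhe40, a repressor that competes at E-boxes, stood at 198 ± 23.9 CPM in WT and 176 ± 20.1 in HOM, a log2 difference of -0.17 (edgeR adjusted p = 0.145). Within genotype, several of these factors varied with the core genes. Gm129 (reference name Ciart), a repressor of CLOCK and BMAL1, had r = 0.87 with Dbp and 0.80 with Nr1d1. Npas2 had r = -0.70 with Dbp and -0.67 with Nr1d1. Tef, a D-box relative of Dbp, had r = -0.73 with Arntl, while Hlf had -0.22 with Arntl and 0.20 with Dbp. Nfil3, which represses at D-boxes, had r = 0.73 with Arntl and -0.54 with Dbp. Bhlhe40 had r = 0.75 with Cry2, and Timeless -0.73 with Per2. The values named were picked from those of all 13 factors with the core genes, and many others were smaller. These values describe 28 libraries and were not tested.

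Among genes that act on clock proteins and genes driven by the clock, few passed. Of 16 kinases, phosphatases and ubiquitin ligase genes, 0 passed in HOM against WT. In the slope per allele 1 fell, Prkaa2, a catalytic subunit of AMP-activated protein kinase (-0.07 per allele on the log2 scale, SE 0.02, edgeR adjusted p = 0.0458). Of 19 output genes, 1 rose and 1 fell in HOM. Lonrf3, which encodes a RING finger protein, rose from a mean of 9.11 CPM in WT to 11 in HOM, by 0.28 on the log2 scale (SE 0.09, edgeR adjusted p = 0.0448), and Coq10b, tied to coenzyme Q, fell from 38.7 to 32.1 CPM, a log2 difference of -0.27 (SE 0.07, edgeR adjusted p = 0.027). The background over all genes was 7.61%, as given above. Of 14 glucocorticoid-induced, 3 cold-inducible and 19 immediate early genes, 0 passed, with median log2 fold changes of 0.08, -0.03 and -0.22.

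The library-to-library spread of the clock genes was then set beside the mean log2 CPM of each gene list, a relation added after the data were examined. Of 160 relations, 13 passed an adjusted p of 0.05 by permutation (Benjamini-Hochberg over the 160). The closest was Dbp with the cold-inducible RNA-binding genes, a list of 3 that includes Rbm3 and Cirbp, whose RNA rises on mild cooling (r = 0.82 and rho = 0.79, adjusted p = 0.0016 by permutation for both). It was 0.73 without the farthest 2 libraries, and 0.21, 0.89 and 0.86 within WT, HET and HOM, so it was weak within WT. The same genes ran opposite to Arntl (r = -0.61, adjusted p = 0.0329, rho = -0.58, adjusted p = 0.0342 by permutation). That value was -0.52 without the farthest 2 libraries, and -0.18, -0.72 and -0.60 within the genotypes.

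Per1 varied with the immediate early genes, which answer neuronal activity (r = 0.71 and rho = 0.74, adjusted p = 0.0016 by permutation for both). The r was 0.70 without the farthest 2 libraries, and 0.79, 0.50 and 0.87 within WT, HET and HOM. Cry2 did so as well (r = 0.59, adjusted p = 0.0322, rho = 0.68, adjusted p = 0.0102 by permutation), with r = 0.60 without the farthest 2 and 0.74, 0.28 and 0.84 within the genotypes. Nr1d1 ran opposite to the glucocorticoid-induced genes (r = -0.62, adjusted p = 0.0272, rho = -0.57, adjusted p = 0.0342 by permutation), with r = -0.52 without the farthest 2 and -0.60, -0.81 and -0.35 within the genotypes. The output genes varied against Arntl (r = -0.70, adjusted p = 0.00373, rho = -0.70, adjusted p = 0.0032 by permutation), with r = -0.74 without the farthest 2 and -0.78, -0.63 and -0.83 within the genotypes.

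The output genes also varied with Per2 (r = 0.64, adjusted p = 0.0272, rho = 0.60, adjusted p = 0.03 by permutation), but the r was 0.85 and 0.79 within WT and HET and 0.05 within HOM. With Cry1 they had r = 0.61 (adjusted p = 0.0329 by permutation), a rho of 0.55 that did not pass (adjusted p = 0.0531), and an r of 0.37 without the farthest 2 libraries and -0.40 within HOM, so this relation did not hold within each genotype. Whether these r differed between genotypes was not tested. Nr1d2 with the output genes passed by rho (rho = 0.56, adjusted p = 0.0443 by permutation) but not by r (r = 0.44, adjusted p = 0.236 by permutation). Among cell type markers, the astrocyte list with Cry2 was the only relation that passed (r = -0.58, adjusted p = 0.0329 by permutation). Its rho of -0.47 did not (adjusted p = 0.17 by permutation), and the r within WT, HET and HOM was -0.50, -0.58 and -0.62. The other 4 of the 13 relations were those of Nr1d1, Dbp, Clock and Per1 with the mean of the other clock factors, at r = 0.69, 0.62, -0.60 and 0.55. For Per1 the rho of 0.52 did not pass (adjusted p = 0.0667 by permutation).

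The genes whose pattern was most like that of a clock gene were sought among 13913 genes of at least 1 CPM on average, by Pearson's r of genotype-centred log2 CPM over the 28 libraries. For Dbp the 5 highest were Epha8, Gm129, Elac1, Bhlhe41 and Dsn1 (r = 0.87, 0.87, 0.85, 0.84 and 0.83), of which Gm129 and Bhlhe41 encode clock repressors. The 3 lowest were Dnaja4, Stip1 and Fscn1 (r = -0.87, -0.86 and -0.85), and the first 2 of these encode co-chaperones of the heat shock protein system. Within WT the r of Stip1 with Dbp was -0.36, and within HET and HOM -0.93 and -0.86. For Arntl the 5 highest were Nmt2, Mycn, Nfil3, 2310058D17Rik and Dtl (r = 0.76, 0.75, 0.73, 0.73 and 0.72), and the 3 lowest Ccdc141, Galntl2 and BC031353, whose reference name is Fam214a (r = -0.80, -0.79 and -0.78). Mycn had r = -0.08 with Arntl within WT and 0.95 within HOM.

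For the other members the pair of genes most alike was Sik1 and Pprc1 for Per1 (r = 0.88 and 0.85). Sik1 encodes a kinase induced by cyclic AMP that acts in light resetting of the clock. For Per2 they were Mamld1 and Rnf165 (0.87 and 0.86), and for Per3 Eef2k and Wdhd1 (0.80 and 0.76). For Cry1 they were Ero1lb and Ak4 (0.74 each), and for Cry2 Phf1 and Lmna (0.87 each). Clock was most like Hspd1, a mitochondrial chaperonin gene, and Ltn1, a gene of ribosome quality control (0.89 and 0.87). Nr1d1 was most like Zfyve28 and Pla2g4e (0.85 and 0.84), and Nr1d2 most like Zfp788 and Gnl3 (0.78 each). Nothing about shared function or control follows from these values, which describe 28 libraries and were not tested.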

How the data were processed

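Per the submitters' processing notes, the tools were Trim Galore 0.4.3 for trimming and HISAT2 2.0.5 for alignment, with genome build GRCm38. Which tool counted the reads, with which strand setting and annotation release, is not given in the sources used here. What the authors deposited is a table of raw counts, whole numbers per gene and library without scaling. Totals of 30.5 to 74.9 M counts per library and a common biological coefficient of variation of 8.46%, fitted over all genes, set the precision.

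Genes were filtered with filterByExpr (16110 left) and scaled by TMM. Tests used edgeR 4.0.16 under R 4.3.3 (glmQLFit and glmQLFTest, robust, two-sided) in 1 fit of 28 libraries with a mean per genotype, and in a fit of the slope on the number of alleles. Benjamini-Hochberg adjustment ran over all genes of a comparison, with a threshold of 0.05. Levels are CPM, and correlations used log2 CPM with a prior count of 2. Loci and exons came from GENCODE vM21, which is also on GRCm38. The fit was tested on simulated data.

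The clock genes and all lists were chosen with earlier results of these data known, so no list is independent evidence. The rule for named genes takes all 10 clock genes, up to 4 called and 2 other genes of each list by smallest p, the other clock factors, and the genes most like each clock gene by r (5 highest and 3 lowest for Arntl and Dbp, 2 highest for the others). Gm129 belongs to both the clock factor and output lists, Rorb to both the clock factor and cortical neuron lists, and 3 genes to both the output and glucocorticoid lists. The alternatives tried were limma 3.58.1 voom with quality weights, DESeq2 1.42.0 or only its size factors, 2 other filters (none, or 1 CPM in 8 libraries), a fit of just the groups compared, a block by replicate number, and the omission of each library. No 2 libraries agreed within sampling noise (lowest chi-square per degree of freedom 6.19 over 15522 genes).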

Additional observations from a re-analysis of the deposited data

Results flagged for a closer look

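In each genotype, the CPM of every clock gene was searched for a single library far from the rest, in 30 groups of 8 or 10 libraries, and chance alone flags about 1 group in 20. Per3 in HET 4 stood at 108 CPM, with the next HET library at 90.4, a gap of 0.54 of the range of the 10 libraries. Dbp in WT 3 stood at 103 CPM, with the next WT library at 87.9, a gap of 0.556 of the range of the 8. Without HET 4 the log2 fold change of Per3 in HOM over HET went from -0.0186 to 0.0198, and neither value passed the threshold. Without WT 3 the log2 fold change of Dbp in HOM over WT went from -0.1325 to -0.0851 and in HET over WT from -0.0882 to -0.0392, and none of these passed.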

How the results depend on the processing

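No clock gene passed in any comparison under any alternative run (1830 values, 0 called). The sign differed in 53 of them, for 15 of 50 results, all with a log2 value near 0. With voom, Clock became 0.0031 in HOM against WT and 0.001 per allele, and Arntl -0.0077 in HET against WT, which was -0.0146 with the replicate block. Leaving out each library in turn gave log2 values, lowest to highest, for Clock of -0.0396 to -0.008 (HOM against WT), -0.0111 to 0.0243 (HOM against HET) and -0.0196 to -0.0035 (slope). For Arntl they were -0.0163 to 0.0501 (HOM against WT), -0.0252 to 0.0424 (HET against WT), -0.023 to 0.0547 (HOM against HET), -0.0084 to 0.0254 (slope) and -0.0592 to 0.0799 (departure). For HET against WT, Cry2 gave -0.0451 to 0.0013. For HOM against HET, Per2 gave -0.0883 to 0.0158, Per3 -0.0384 to 0.0198 and Cry1 -0.0526 to 0.019. For the departure, Dbp gave -0.0719 to 0.1061, Per1 -0.0382 to 0.1102 and Nr1d2 -0.0858 to 0.0158.

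Counts over all genes moved more, for causes that were not tested. HOM against WT gave 737 with the replicate block, 509 without WT 6 and HOM 3 (added after the data were examined) and 595 to 1345 with 1 library left out, against 1226. The slope gave 821, 608 and 681 to 1401, against 1254. HET against WT gave 12 with DESeq2, 14 with voom, 1 with 1 CPM in 8 libraries, 4 with only the groups compared, 2 without the 2 shallowest libraries and 0 to 3 with 1 library left out, against 0 (1547 at an unadjusted p under 0.05). HOM against HET gave 48 with DESeq2, 38 with voom and 3 to 15 with 1 library left out, against 6. The departure gave 0 throughout (456 unadjusted).

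The correlated pairs numbered 16 with the replicate block, and 6 (without HET 10) to 14 (without HET 4) with 1 library left out, against 9. All 9 passed with the block. The permutations there did not allow for the replicate terms removed, so the p-values with the block are too low. The 16 and the 9 are therefore not like counts, and the block is no check on the 9. Same-numbered libraries did not deviate together (26 pairs, r -0.16 to 0.18, median 0.01), and 2 of 28 libraries were closest to one of their own number, so the numbers do not pair the samples. The lowest count of a clock gene in a library was 590.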
